A study of Homo sapiens with 6 samples.

Results

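After genes of named families, many of them immediate early, were set aside, a set of 27 genes was examined. They were more abundant in EndoC-βH1 cells treated with AZD7762 than in vehicle-treated cells. They were selected on their measured values, out of 60671 gene identifiers in each library. A gene was taken when its lowest level with AZD7762 was at least 1.3 times its highest level with DMSO and its mean level with AZD7762 was at least 2 CPM (a gene's share of all counts in its library, scaled so that libraries of any size compare). In all, 46 genes met this rule, and 19 of them were set aside by the start of their symbol or by identifier. The symbols included those starting with NR4A, FOS, JUN, EGR, SIK, DUSP, KLF, BTG and RGS, and also MAFA and KCNE4. Relatives with other names, such as TOB1 and TOB2 beside BTG2, stayed in. Of the 27 that remained, 25 are protein coding and 2 are long noncoding RNAs. Their means ran from 3.24 times higher for the stress sensor GADD45B, 3.19 times for MYC and 2.84 times for the splicing kinase CLK1 down to 1.35 times for the tubulin TUBA4A, and the metabolic kinase PDK4 gained most in level, from 264 to 593 CPM. Since the rule used the comparison of AZD7762 with DMSO itself, the difference between the groups is a description for these genes, and the number of them that the fit called is given without reading anything from it. Tests are given for genes that the rule did not choose, most of them from lists drawn up with earlier results of these data known.

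EndoC-βH1 is an immortalized human β cell line, labelled wild type here, and AZD7762 is a small-molecule inhibitor of the checkpoint kinases CHEK1 and CHEK2. The 6 libraries of polyadenylated RNA came from 3 samples treated with DMSO, the vehicle, and 3 treated with 1 µM AZD7762. Cells of both groups were held for 1 h at 0.5 mM glucose and then for 1 h at 0.5 or 20 mM glucose, with the vehicle or the compound present throughout. The labels do not say which of the glucose levels a library received. The labels also do not say that the samples were separate cultures, so the p-values below measure the spread between these samples, and a bulk library cannot tell a larger number of RNA molecules per cell from a larger number of expressing cells.

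Several of the selected genes belong to the class that cells switch on quickly after a stimulus, without the need for newly made protein. The set holds transcription factors such as MYC and SRF, the synaptic protein ARC, small GTPases such as GEM and RASD1, and the proteins TOB1 and TOB2, which shorten the life of mRNA. Excitable cells, which include neurons and β cells, use such genes to link electrical activity, calcium and cAMP to slower changes in gene expression.

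The libraries held 20486391 to 29402440 counts on genes, so that 3 counts, taken as the floor of detection, equalled 0.102 to 0.146 CPM (counting error only). All 8 β cell markers, among them INS and PDX1, were detected in every library, with a summed level of 3118 to 3870 CPM under DMSO and 3089 to 3518 CPM under AZD7762. The 4 α cell markers summed to 1809 to 2093 CPM and 1947 to 2171 CPM, of which most was TTR, and the 3 δ cell markers to 235 to 263 CPM and 269 to 292 CPM. Of 5 acinar markers, PRSS1, CELA3A, PNLIP and CTRB2 were at 0 in all libraries, while CPA1 lay between 21.2 and 27.1 CPM. The ductal markers summed to 24.8 to 30.6 CPM and 25.2 to 28.6 CPM and the mesenchymal markers to 12.0 to 18.0 CPM and 12.9 to 15.5 CPM. The endothelial, immune, PP and ε cell markers summed to at most 0.408 CPM in any list and library. Of the 20 markers tested, edgeR called 0 and DESeq2 called 1, with 4 at an unadjusted p under 0.05. The one called was the β cell marker NEUROD1, lower with AZD7762, at 1380 to 1433 CPM under DMSO and 1125 to 1211 CPM under AZD7762. Whether other cell types take part in the results was not tested further. Counts at an unadjusted p, here and below, stand without the share over all genes tested, and nothing is read from them. The second AZD7762 and the third DMSO library were compared with the others of their group by the GC content of a gene. Their deviations correlated with it at r = -0.49 and 0.52 over 13766 tested genes with a mean of at least 2 CPM. The same comparison was not made for the other libraries. The values of the selected genes that bear on this are given further on.

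Together the 27 genes took 1152, 1093 and 1175 CPM in the DMSO libraries and 1941, 2321 and 2123 CPM in the AZD7762 libraries. PDK4 alone accounted for 264 of the mean 1140 CPM under DMSO and for 593 of the mean 2128 CPM under AZD7762. Without it the means were 875 and 1535 CPM. The ratio of the group means had a median of 1.88 and ran from 1.35 for TUBA4A to 3.24 for GADD45B. It was at least 2 for 10 of the 27 genes. The 19 genes of the families set aside had ratios of 2.01 to 47.1 with a median of 3.62, and the present genes are mostly the smaller rises among those that met the rule. The edgeR quasi-likelihood fit gave the 27 genes a median log2 fold change of 0.95, against 0.0076 for all 17649 genes tested. It called 26 of them at an adjusted p under 0.05, where it called 0.708% of all genes tested in either direction and 0.357% as higher, and nothing is read from these shares because the rule used the same contrast. ARHGDIB, at 44 to 85 counts per library, was the one not called.

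**Figure D1:**
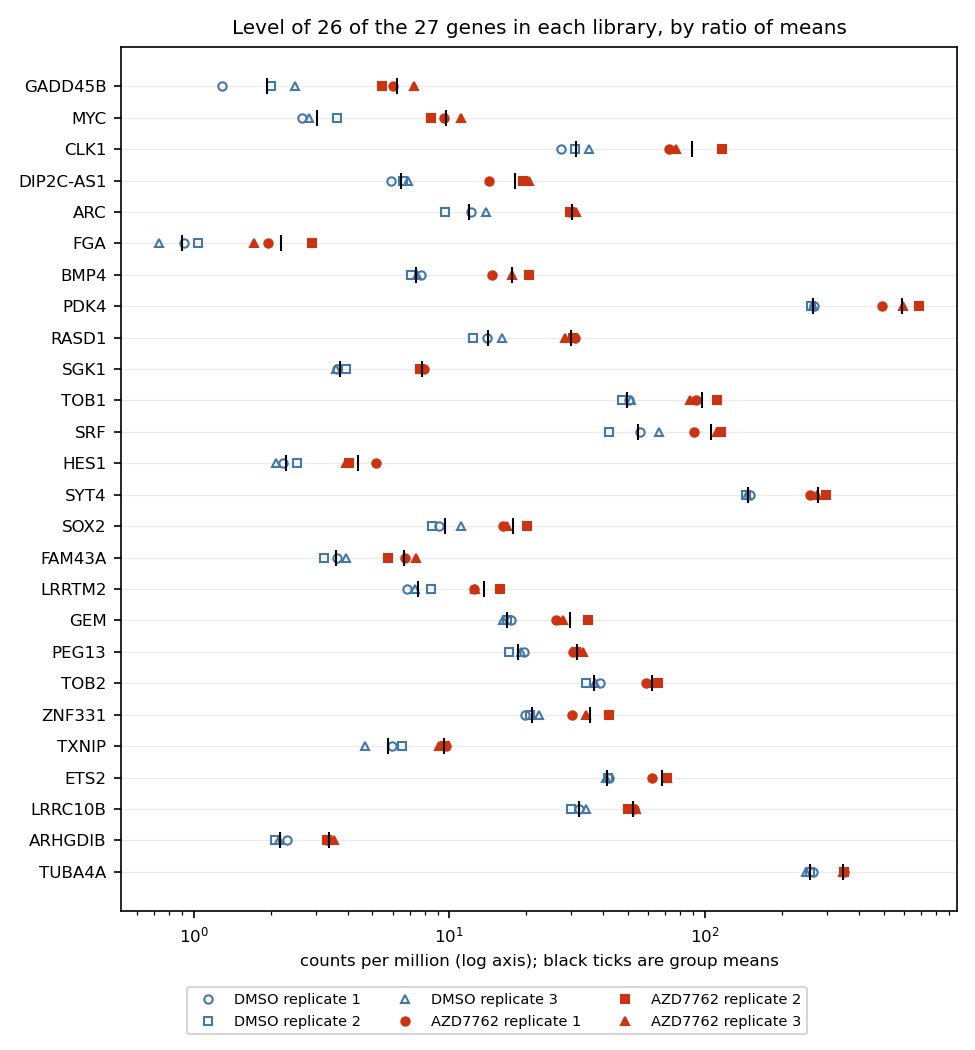
Level of 26 of the 27 selected genes in the 6 libraries, in CPM on a log axis, with genes ordered by the ratio of the group means. Open blue symbols are DMSO, filled red symbols AZD7762, symbol shape gives the replicate and black ticks the group means. By the rule, the red and blue symbols do not overlap for any gene shown. The ratio of the means falls from GADD45B (3.24-fold) to TUBA4A (1.35-fold).

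At the edge of the rule, the lowest AZD7762 level over the highest DMSO level was 1.31 for TUBA4A, 1.35 for ZNF331 and 1.36 for SRF, and among the genes left outside it was 1.26 for TENT5A, 1.24 for CHMP1B and 1.24 for ZMYND10. On the level criterion, FGA (2.19 CPM with AZD7762), ARHGDIB (3.39 CPM) and HES1 (4.40 CPM) were just inside. An unnamed gene (1.68 CPM), LINC01679 (1.60 CPM) and FHL2 (1.46 CPM) were just outside.

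The promoters of these genes were read for short sequences that stimulus-responsive factors bind, since genes that change together may share them. RefSeq windows of 300 bases, from 250 before to 50 after a transcription start on GRCh38.p14, were found for 22 of the 27 genes. The 5 without a window include MYC, ARC, GEM and PEG13, whose promoters were not searched. Both strands were searched for 7 short motifs. These were the CRE (TGACGTCA, bound by CREB), its core (TGACG, which every CRE also contains), the AP-1 site (TGANTCA), the EGR site (GCGNGGGCG), the E-box (CACGTG, bound by MYC and its relatives), the TATA box (TATAAA) and the CArG box, bound by SRF. The 22 genes had 38 windows, against 35116 windows for all 27305 genes. A gene was counted when any of its windows held a motif. At least 1 of the motifs was found in 16 of the 22 genes. The 250 bases before the start are given for the 6 protein-coding genes of largest ratio that held one. They are also given for SRF and LRRTM2, chosen after the search because they held 2 CArG boxes and the only full CRE. Where a gene had more than 1 window, the window with the most motifs was printed. Capitals mark the motifs, and positions are counted back from the start.
GADD45B, chr19:2475877-2476126, + strand: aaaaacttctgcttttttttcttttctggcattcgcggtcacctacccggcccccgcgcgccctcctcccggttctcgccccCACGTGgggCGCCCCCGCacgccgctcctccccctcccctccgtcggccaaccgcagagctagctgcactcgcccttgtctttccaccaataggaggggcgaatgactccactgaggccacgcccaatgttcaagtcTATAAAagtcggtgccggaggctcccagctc
CLK1, chr2:200864659-200864908, - strand: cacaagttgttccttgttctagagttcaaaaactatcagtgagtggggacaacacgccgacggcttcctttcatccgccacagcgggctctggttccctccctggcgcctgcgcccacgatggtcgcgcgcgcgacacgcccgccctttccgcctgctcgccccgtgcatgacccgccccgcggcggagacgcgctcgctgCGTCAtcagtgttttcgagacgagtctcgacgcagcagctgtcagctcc
BMP4, chr14:53953396-53953645, - strand: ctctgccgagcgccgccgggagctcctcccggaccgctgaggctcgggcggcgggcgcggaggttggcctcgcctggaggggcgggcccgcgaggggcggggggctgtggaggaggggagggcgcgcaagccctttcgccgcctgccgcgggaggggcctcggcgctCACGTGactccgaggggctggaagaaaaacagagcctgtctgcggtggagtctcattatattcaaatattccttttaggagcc
PDK4, chr7:95596517-95596766, - strand: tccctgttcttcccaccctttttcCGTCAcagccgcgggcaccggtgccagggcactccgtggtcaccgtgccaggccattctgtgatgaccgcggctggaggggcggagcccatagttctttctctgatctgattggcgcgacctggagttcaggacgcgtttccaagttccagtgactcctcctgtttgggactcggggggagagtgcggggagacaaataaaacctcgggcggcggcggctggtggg
RASD1, chr17:17496396-17496645, - strand: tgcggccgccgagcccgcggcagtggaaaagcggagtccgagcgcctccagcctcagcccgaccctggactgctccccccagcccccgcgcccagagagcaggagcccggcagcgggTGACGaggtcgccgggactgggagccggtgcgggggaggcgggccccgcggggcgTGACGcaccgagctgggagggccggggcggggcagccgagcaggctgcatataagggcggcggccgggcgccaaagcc
SGK1, chr6:134174867-134175116, - strand: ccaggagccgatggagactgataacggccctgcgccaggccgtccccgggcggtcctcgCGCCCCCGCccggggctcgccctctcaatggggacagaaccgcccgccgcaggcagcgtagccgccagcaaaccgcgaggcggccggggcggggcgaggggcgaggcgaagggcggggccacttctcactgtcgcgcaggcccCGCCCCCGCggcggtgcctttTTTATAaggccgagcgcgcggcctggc
SRF, chr6:43171019-43171268, + strand: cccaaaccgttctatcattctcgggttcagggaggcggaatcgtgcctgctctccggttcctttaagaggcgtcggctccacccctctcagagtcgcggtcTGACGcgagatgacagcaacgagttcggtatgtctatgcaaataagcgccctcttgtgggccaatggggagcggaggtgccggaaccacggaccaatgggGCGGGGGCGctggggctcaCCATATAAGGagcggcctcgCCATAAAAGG
LRRTM2, chr5:138875336-138875585, - strand: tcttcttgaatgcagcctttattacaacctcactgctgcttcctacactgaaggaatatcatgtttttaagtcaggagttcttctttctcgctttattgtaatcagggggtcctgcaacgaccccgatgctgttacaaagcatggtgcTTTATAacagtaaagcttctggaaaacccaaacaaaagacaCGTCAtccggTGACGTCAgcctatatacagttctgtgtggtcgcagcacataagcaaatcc

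The CRE core was present in 13 of the 22 genes (59.1%), namely ARHGDIB, CLK1, DIP2C-AS1, ETS2, HES1, LRRTM2, PDK4, RASD1, SOX2, SRF, SYT4, TOB1 and ZNF331. Among all 27305 genes with a window of this length its share was 28.4%, and among the 12027 other genes tested here it was 39.7%. The full CRE was found in LRRTM2 alone, 51 bases before its start (4.55%, against 2.25% of all genes and 3.71% of the other genes tested). CArG boxes lay in SRF, at 30 and 10 bases before the start, in DIP2C-AS1 and in ARHGDIB (13.6%, against 1.6% and 1.5%). The letters of the TATA box were found in GADD45B, LRRTM2, SGK1 and SRF (18.2%, against 14.0% and 8.61%). They lay 31 bases before the start in GADD45B, 27 bases before it in SGK1 and 102 bases before it in LRRTM2. In SRF they lay 14 bases after the start, outside the printed stretch. EGR sites in GADD45B, SGK1, SRF and SYT4 (18.2%) compared with 11.2% and 19.1%. E-boxes in BMP4, GADD45B and ZNF331 (13.6%) compared with 8.77% and 12.2%, and AP-1 sites in ARHGDIB and ZNF331 (9.09%) with 9.37% and 6.86%. Counted by window, the shares in the 38 windows and in all 35116 were 55.3% and 24.6% for the CRE core and 2.63% and 1.85% for the full CRE. They were 7.89% and 1.29% for the CArG box, 15.8% and 11.5% for the TATA box and 10.5% and 9.43% for the EGR site. For the E-box they were 7.89% and 7.26%, and for the AP-1 site 7.89% and 7.71%. All these shares rest on 22 genes and were not tested, and a match is a stretch of letters that was not shown to be bound in these cells.

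Among the transcription regulators were MYC, SRF, ETS2, SOX2, HES1 and ZNF331. MYC, the growth-promoting factor that binds E-boxes as a dimer with MAX, stood at 2.65, 3.64 and 2.83 CPM in the DMSO libraries. With AZD7762, MYC was at 9.57, 8.49 and 11.1 CPM. In MYC, the third AZD7762 library was highest and the second DMSO library was nearest to the AZD7762 libraries, and the ratio of means was 3.19 (log2 fold change 1.70 ± 0.15 (SE)). SRF (chr6:43139007-43149244; gene positions are on GRCh37), which drives immediate early and actin genes through the CArG box, stood at 55.8, 42.0 and 66.3 CPM in the DMSO libraries. With AZD7762, SRF was at 90.5, 116 and 111 CPM. Its DMSO libraries spread more than those of most other genes, from 42.0 to 66.3 CPM, and the ratio was 1.94, with the third DMSO library nearest to the AZD7762 group. ETS2 (chr21:40177107-40196879), an ETS-domain factor activated by MAP kinase phosphorylation, stood at 42.1, 41.6 and 41.1 CPM in the DMSO libraries. With AZD7762, ETS2 was at 62.1, 71.0 and 70.8 CPM. The 3 DMSO libraries were nearly equal, and group means of 41.6 ± 0.510 and 68.0 ± 5.08 CPM (SD, n = 3) gave a ratio of 1.64.

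SOX2 (chr3:181429713-181432224), an HMG-box factor of stem and progenitor cells encoded by a single exon, stood at 9.15, 8.58 and 11.1 CPM in the DMSO libraries. With AZD7762, SOX2 was at 16.2, 20.2 and 16.8 CPM. HES1 (chr3:193853937-193856521), the bHLH repressor through which Notch acts, stood at 2.24, 2.53 and 2.10 CPM in the DMSO libraries. With AZD7762, HES1 was at 5.18, 4.06 and 3.95 CPM. HES1 is at a low level, and its first AZD7762 library was highest, while SOX2 was highest in the second, with ratios of 1.85 for SOX2 and 1.92 for HES1. ZNF331 (chr19:54022781-54083523), a KRAB zinc finger protein, stood at 19.9, 20.8 and 22.5 CPM in the DMSO libraries. With AZD7762, ZNF331 was at 30.3, 42.1 and 34.2 CPM. Its second AZD7762 library was highest, the DMSO libraries were close together, and the ratio was 1.69.

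The relatives of these factors, taken from gene lists that were drawn up with earlier results of these data known, gave 4 calls in the 5 lists described here. Over the relatives of all lists 3.93% were called, against 0.708% of all genes tested. Nothing is read from the distance between these shares, since the lists were shaped by known results. In the SOX list, 1 of 12 relatives was called, and it was lower: SOX4, a SOX factor of developing endocrine cells, stood at 126 ± 7.08 CPM under DMSO and 66.2 ± 2.76 CPM under AZD7762 (log2 fold change -0.90 ± 0.06, edgeR adjusted p = 7.79e-06). In the MYC and MAX network, 1 of 12 relatives was called, also lower: MXD1, which competes with MYC for MAX, stood at 103 ± 2.24 CPM under DMSO and 67.4 ± 4.56 CPM under AZD7762 (log2 fold change -0.58 ± 0.06, edgeR adjusted p = 0.000332). MYCN, a paralog of MYC, went from 73.6 to 57.7 CPM and did not pass the test (edgeR adjusted p = 0.190). In the Notch list, 1 of 15 relatives was called: DLL4, a Notch ligand, stood at 51.9 ± 6.78 CPM under DMSO and 36.5 ± 2.88 CPM under AZD7762 (log2 fold change -0.47 ± 0.09, edgeR adjusted p = 0.0352). The DLL4 call was lost without the first DMSO library or without the first or second AZD7762 library (highest adjusted p 0.256). By contrast, SOX4 and MXD1 were called with any single library left out (highest adjusted p 0.000342 and 0.00620). Among 14 ETS relatives edgeR and DESeq2 both called 0, with 2 at an unadjusted p under 0.05. In the list of LIM domain and actin cytoskeleton genes, where SRF targets are common, edgeR called 1 of 20 relatives, the actin-binding protein CNN2, at 0.317 ± 0.149 CPM under DMSO and 1.05 ± 0.118 CPM under AZD7762 (log2 fold change 1.71 ± 0.33, edgeR adjusted p = 0.0310). CNN2 is near the floor of detection, and its call was kept in only 1 of the 6 fits with a library left out (highest adjusted p 0.231, without the first AZD7762 library; it was kept without the second DMSO library), while DESeq2 gave it no adjusted p. DESeq2 called 2 others, ZYX, a focal adhesion protein, at 15.6 and 22.3 CPM (log2 fold change 0.56, edgeR adjusted p = 0.108), and MYADM (log2 fold change 0.39, edgeR adjusted p = 0.0634). In all, 6 of the 20 had an unadjusted p under 0.05, among them FHL2, a LIM domain protein, at 0.495 and 1.46 CPM (log2 fold change 1.53, edgeR adjusted p = 0.0694). ACTB and ACTG1, the cytoplasmic actins, did not pass the test, with log2 fold changes of 0.24 and 0.16.

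A second group of genes acts on RNA itself. CLK1 (chr2:201717732-201729414), a kinase that phosphorylates the SR proteins of the splicing machinery, stood at 27.4, 31.1 and 35.1 CPM in the DMSO libraries. With AZD7762, CLK1 was at 72.1, 117 and 76.8 CPM. It had the third largest ratio, 2.84, and a wide AZD7762 group, since the second library alone was far above the other AZD7762 libraries. Without that library its edgeR log2 fold change was 1.28 in place of 1.55. TOB1 (chr17:48939584-48945339), an antiproliferative protein that recruits the CCR4-NOT deadenylase to mRNA, stood at 50.5, 47.2 and 51.5 CPM in the DMSO libraries. With AZD7762, TOB1 was at 92.6, 111 and 87.2 CPM. Its paralog TOB2 (chr22:41829498-41842805) stood at 38.8, 34.4 and 37.2 CPM in the DMSO libraries. With AZD7762, TOB2 was at 59.0, 65.6 and 62.3 CPM. TOB1 and TOB2 were both tight in the DMSO group, and the ratios were 1.95 and 1.69. Of the 11 relatives in the TOB and CCR4-NOT list edgeR and DESeq2 called 0, with 1 at an unadjusted p under 0.05, and their log2 fold changes ran from -0.08 to 0.19. CNOT1, the scaffold of the deadenylase, stood at 513 CPM under DMSO and 526 CPM under AZD7762. Of the 10 tested relatives of CLK1 among the CLK, DYRK and SRPK kinases both tools called 0, with 2 at an unadjusted p under 0.05 and log2 fold changes from -0.14 to 0.34. TENT5A, a cytoplasmic poly(A) polymerase that fell just outside the rule, was the one called of 3 relatives in its list. It stood at 169 ± 11.1 CPM under DMSO and 241 ± 13.5 CPM under AZD7762 (log2 fold change 0.55 ± 0.07, edgeR adjusted p = 0.00128). The call was kept with any single library left out. That list holds no selected gene and was written around genes seen in earlier results of these data, so the call is not independent evidence.

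The signalling genes were GADD45B, SGK1, RASD1, GEM, ARHGDIB and BMP4. GADD45B (chr19:2476120-2478257), a stress sensor that activates the p38 and JNK cascades through the kinase MTK1, stood at 1.29, 2.01 and 2.49 CPM in the DMSO libraries. With AZD7762, GADD45B was at 6.04, 5.46 and 7.25 CPM. This was the largest ratio of the set, 3.24 (log2 fold change 1.76 ± 0.20 (SE)), on a low level of 38 to 54 counts per DMSO library and 117 to 156 counts per AZD7762 library. SGK1 (chr6:134490386-134639250), a kinase related to AKT whose mRNA is induced by serum, glucocorticoids and cell stress, stood at 3.64, 3.94 and 3.61 CPM in the DMSO libraries. With AZD7762, SGK1 was at 7.96, 7.70 and 7.81 CPM. The AZD7762 libraries of SGK1 were almost equal, with means of 3.73 ± 0.180 and 7.82 ± 0.134 CPM (SD, n = 3) and a ratio of 2.10. SGK1 had 74 to 107 counts per DMSO library and 165 to 203 per AZD7762 library. RASD1 (chr17:17397751-17399709), a Ras-like GTPase induced by dexamethasone, stood at 14.1, 12.3 and 16.1 CPM in the DMSO libraries. With AZD7762, RASD1 was at 31.1, 30.4 and 28.4 CPM. GEM, an RGK-family GTPase that holds back voltage-gated calcium channels, stood at 17.5, 16.8 and 16.2 CPM in the DMSO libraries. With AZD7762, GEM was at 26.0, 34.8 and 27.9 CPM. The AZD7762 libraries of RASD1 were alike, whereas the second AZD7762 library of GEM was above the others, and the ratios were 2.12 and 1.76. ARHGDIB (chr12:15094965-15114662), a GDP dissociation inhibitor that keeps small GTPases inactive, stood at 2.31, 2.08 and 2.15 CPM in the DMSO libraries. With AZD7762, ARHGDIB was at 3.33, 3.31 and 3.53 CPM, a ratio of 1.56 (log2 fold change 0.67 ± 0.14 (SE)). These levels rest on 44 to 85 counts per library, so nothing is read from the small spread within each group. BMP4 (chr14:54416454-54425479), a secreted ligand of the TGF-β superfamily, stood at 7.72, 7.09 and 7.47 CPM in the DMSO libraries. With AZD7762, BMP4 was at 14.7, 20.4 and 17.6 CPM. The DMSO libraries of BMP4 were nearly equal and the AZD7762 libraries ranged widely above them, with a ratio of 2.37 (log2 fold change 1.28 ± 0.12 (SE)).

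The families of these signalling genes were read in the same way. GADD45A and GADD45G had log2 fold changes of 0.11 ± 0.10 (SE) and -0.32 ± 0.20, and neither was called by edgeR or DESeq2 (1 of 3 relatives had an unadjusted p under 0.05). In the SGK and AKT list, edgeR and DESeq2 called 0 of 8 relatives, 1 having an unadjusted p under 0.05, and AKT1 stood at 405 and 429.9 CPM. Both tools called 0 of 15 tested BMP ligands, receptors, SMADs and antagonists. Of these, 3 had an unadjusted p under 0.05, all lower with AZD7762: the ligand BMP2, at 5.66 and 3.87 CPM (log2 fold change -0.50, edgeR adjusted p = 0.254), the receptor ACVR2B and the mediator SMAD9. The most abundant of the list, BMP5, stood at 217 and 204 CPM, and the antagonist GREM1 at 194 and 189 CPM. Of 7 tested relatives of GEM and RASD1, RAP2B, a Ras-like GTPase, was called, at 28.5 ± 1.14 CPM under DMSO and 36.8 ± 1.58 CPM under AZD7762 (log2 fold change 0.40 ± 0.07, edgeR adjusted p = 0.0180). The RAP2B call was lost without the second DMSO library or without the first or second AZD7762 library (highest adjusted p 0.134). In this list 3 relatives had an unadjusted p under 0.05, and besides RAP2B these were REM2 and RIT1, both lower with AZD7762. REM2 stood at 3.75 ± 0.525 CPM under DMSO and 2.21 ± 0.127 CPM under AZD7762 (log2 fold change -0.73 ± 0.16, edgeR adjusted p = 0.0698). RIT1 had a log2 fold change of -0.16 ± 0.07 (edgeR adjusted p = 0.495).

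PDK4 and TXNIP are genes of fuel metabolism. PDK4 (chr7:95212811-95225828) phosphorylates and inhibits the pyruvate dehydrogenase complex, which limits the entry of glucose carbon into the citric acid cycle, and stood at 268, 260.2 and 265 CPM in the DMSO libraries. With AZD7762, PDK4 was at 495, 688 and 596 CPM. The DMSO libraries agreed to a coefficient of variation of 1.55%, the AZD7762 libraries to 16.3%, and the ratio was 2.24. Per kb of exon, PDK4 went from 58.2 to 130.5 CPM, from below TUBA4A with DMSO to the highest level of the 27 genes with AZD7762. Of the 11 other genes of the pyruvate dehydrogenase complex, its kinases and its phosphatases edgeR and DESeq2 called 0, with 1 at an unadjusted p under 0.05, and their log2 fold changes ran from -0.12 to 0.22. PDK2 had the largest of these, at 31.8 ± 1.13 CPM under DMSO and 36.0 ± 1.15 CPM under AZD7762 (log2 fold change 0.22 ± 0.07, edgeR adjusted p = 0.275), and PDK1 and PDK3 had 0.03 and -0.01. TXNIP (chr1:145438490-145442635), an α-arrestin that binds thioredoxin and is strongly induced by glucose in β cells, stood at 5.99, 6.54 and 4.69 CPM in the DMSO libraries. With AZD7762, TXNIP was at 9.73, 9.65 and 9.11 CPM, a ratio of 1.66 at a low level. Among 8 tested α-arrestin and thioredoxin genes edgeR called 0 and DESeq2 called 1, with 2 at an unadjusted p under 0.05. The gene that DESeq2 called was the α-arrestin ARRDC3, at 464 ± 69.1 CPM under DMSO and 578 ± 28.9 CPM under AZD7762 (log2 fold change 0.35 ± 0.10, edgeR adjusted p = 0.179). The other with an unadjusted p under 0.05 was the α-arrestin ARRDC4, which was lower with AZD7762. ARRDC4 stood at 25.3 ± 0.555 CPM under DMSO and 20.0 ± 1.16 CPM under AZD7762 (log2 fold change -0.30 ± 0.08, edgeR adjusted p = 0.134).

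Genes best known from neurons and from vesicle traffic were ARC, LRRTM2 and SYT4. ARC, a protein made at active synapses that assembles into virus-like capsids, stood at 12.1, 9.62 and 14.0 CPM in the DMSO libraries. With AZD7762, ARC was at 29.8, 29.8 and 31.4 CPM. The 3 AZD7762 libraries of ARC were almost equal, and the ratio was 2.55 (log2 fold change 1.39 ± 0.11 (SE)). LRRTM2 (chr5:138204610-138211057), a leucine-rich repeat protein of the postsynaptic membrane that binds neurexins, stood at 6.80, 8.47 and 7.32 CPM in the DMSO libraries. With AZD7762, LRRTM2 was at 12.5, 15.9 and 12.6 CPM. SYT4 (chr18:40847857-40857500), a synaptotagmin of secretory vesicles, stood at 150.3, 145 and 146 CPM in the DMSO libraries. With AZD7762, SYT4 was at 258, 298 and 274 CPM. The means of SYT4 were 147 ± 2.71 and 277 ± 20.2 CPM (SD, n = 3), a ratio of 1.88 with little spread on either side, and that of LRRTM2 was 1.82. Both edgeR and DESeq2 called 0 of 13 tested synaptotagmins, with 2 at an unadjusted p under 0.05 (SYT14 and SYT15, both lower). SYT7 and SYT13, both abundant here, stood at 346 and 387 CPM under DMSO and 357 and 382 CPM under AZD7762. The same held for 11 other neuronal activity genes, with 0 at an unadjusted p under 0.05, among them the granin SCG2, at 430.4 and 455 CPM, and the prohormone convertase PCSK1, at 551 and 564 CPM.

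The remaining protein-coding genes were TUBA4A, LRRC10B, FAM43A and FGA. TUBA4A (chr2:220114432-220142624), an α-tubulin, stood at 264, 258 and 249 CPM in the DMSO libraries. With AZD7762, TUBA4A was at 349, 350.1 and 346 CPM. It had the smallest ratio, 1.35, and the tightest AZD7762 group, with a coefficient of variation of 0.641%. LRRC10B (chr11:61276221-61278490), a leucine-rich repeat protein, stood at 32.3, 29.9 and 34.2 CPM in the DMSO libraries. With AZD7762, LRRC10B was at 52.7, 49.9 and 53.7 CPM. FAM43A (chr3:194406612-194409766), a gene of 1 exon whose product is little characterized, stood at 3.64, 3.23 and 3.95 CPM in the DMSO libraries. With AZD7762, FAM43A was at 6.71, 5.74 and 7.44 CPM. In both, the second library was the lowest of its group under either treatment, with ratios of 1.62 and 1.84. FGA (chr4:155504278-155511894), the α chain of the clotting protein fibrinogen and normally a liver product, stood at 0.918, 1.04 and 0.732 CPM in the DMSO libraries. With AZD7762, FGA was at 1.96, 2.89 and 1.72 CPM. It was the lowest gene of the set, at 15 to 28 counts per DMSO library and 37 to 62 per AZD7762 library, and its ratio was 2.44. The edgeR log2 fold change of FGA was 1.29, and 1.04 without the second AZD7762 library. FGB, the β chain and the next gene on the chromosome, stood at 14.9 ± 1.67 CPM under DMSO and 17.0 ± 1.39 CPM under AZD7762 (log2 fold change 0.22 ± 0.10, edgeR adjusted p = 0.529). Of 11 tested tubulins edgeR called 0 and DESeq2 called 1, with 6 at an unadjusted p under 0.05. Of these, TUBA1A, TUBA1C, TUBB2A, TUBB4B and TUBB6 were higher with AZD7762, and TUBA8, at 0.624 and 0.262 CPM, was lower. The one DESeq2 called was TUBB4B, at 572 ± 34.4 CPM under DMSO and 688 ± 28.8 CPM under AZD7762 (log2 fold change 0.30 ± 0.06, edgeR adjusted p = 0.0622).

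Both long noncoding RNAs lie within protein-coding genes. DIP2C-AS1 (chr10:695888-715521), which runs antisense inside DIP2C, stood at 5.92, 6.57 and 6.88 CPM in the DMSO libraries. With AZD7762, DIP2C-AS1 was at 14.3, 19.4 and 20.5 CPM. PEG13, an imprinted transcript inside TRAPPC9, stood at 19.6, 17.2 and 19.1 CPM in the DMSO libraries. With AZD7762, PEG13 was at 30.5, 31.2 and 33.3 CPM. The ratios were 2.79 and 1.70, and neither host gene was called. DIP2C stood at 57.5 ± 4.37 CPM under DMSO and 51.5 ± 5.87 CPM under AZD7762 (log2 fold change -0.12 ± 0.08, edgeR adjusted p = 0.684). TRAPPC9 stood at 127 ± 3.06 CPM under DMSO and 138 ± 1.21 CPM under AZD7762 (log2 fold change 0.16 ± 0.05, edgeR adjusted p = 0.339). Strand cannot be resolved, since the labels do not say whether a library kept it, so reads of overlapping genes on opposite strands cannot be told apart. Exons of another gene covered part of the exons of 7 of the 27 genes, with 20.8% for PEG13, 20.0% for TUBA4A, 16.3% for BMP4, 11.1% for TOB1, 7.30% for LRRTM2, 3.18% for MYC and 2.25% for ETS2. The gene that covers part of the PEG13 exons was not analysed here. The overlapping genes that edgeR tested did not pass. CTNNA1, around LRRTM2, had a log2 fold change of 0.04 ± 0.06 and an edgeR adjusted p of 0.890. STK16, beside TUBA4A, had a log2 fold change of 0.03 ± 0.07 and an edgeR adjusted p of 0.928, and TOB1-AS1 had a log2 fold change of -0.11 ± 0.17 and an edgeR adjusted p of 0.886. PDK4-AS1, whose span holds PDK4, was at 2.60 ± 0.170 CPM under DMSO and 2.75 ± 0.442 CPM under AZD7762 (log2 fold change 0.12 ± 0.16, edgeR adjusted p = 0.867).

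Across all 22 lists of relatives, 21 of the 27 genes had a list, and 229 relatives that the rule did not choose were tested. edgeR called 9 of them (3.93%), 6 higher and 3 lower, against 0.708% of all genes tested. An unadjusted p under 0.05 was found for 47, without the share over all genes to set beside it. The median log2 fold change of the relatives was 0.0077, close to that of all genes, with 122 of 229 above 0. The calls not yet given were CITED2, CHMP1B and ADRA2A. CITED2, a coregulator that binds CREBBP and EP300, stood at 57.9 ± 2.07 CPM under DMSO and 74.9 ± 4.67 CPM under AZD7762 (log2 fold change 0.41 ± 0.07, edgeR adjusted p = 0.00801). CHMP1B, an ESCRT-III subunit, stood at 87.9 ± 2.94 CPM under DMSO and 117 ± 4.20 CPM under AZD7762 (log2 fold change 0.44 ± 0.06, edgeR adjusted p = 0.00175). ADRA2A, the adrenergic receptor that restrains insulin release, stood at 37.5 ± 0.889 CPM under DMSO and 48.4 ± 2.94 CPM under AZD7762 (log2 fold change 0.40 ± 0.07, edgeR adjusted p = 0.0127). CHMP1B was called with any single library left out. The CITED2 call was lost without the second DMSO or first AZD7762 library (highest adjusted p 0.0741). The ADRA2A call was lost without the first or second DMSO or the second AZD7762 library (highest adjusted p 0.0818). Lists with no selected gene, which hold CITED2, CHMP1B, ADRA2A and TENT5A, were written around genes seen in earlier results of these samples. Their calls are not independent evidence. They also raise the 3.93%, so nothing is read from its distance to 0.708%.

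**Figure D2:**
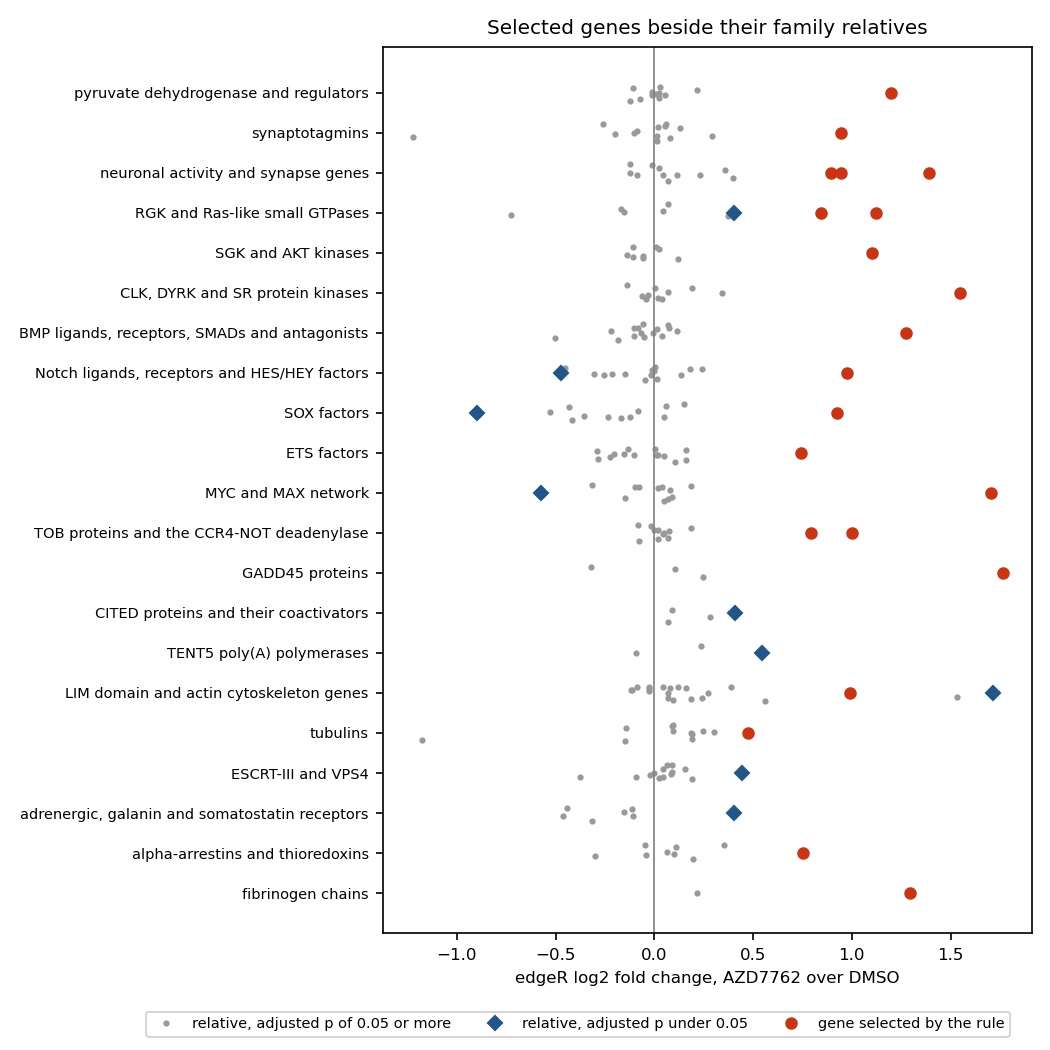
edgeR log2 fold change, AZD7762 over DMSO, of the selected genes (red) and of their tested relatives in 21 of the 22 gene lists, with relatives that passed an adjusted p of 0.05 as blue diamonds and the others as grey points. The selected genes lie between 0.47 and 1.76, and 9 relatives are marked as called, 6 to the right of 0 and 3 to the left (SOX4, MXD1 and DLL4).

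The position of the genes was compared with that of their nearest neighbours, a set added after the values had been seen. Taken as the nearest tested protein-coding genes by start site on either side, there were 54, at a median distance of 175296 bases, and 3 of them (DIP2C, CTNNA1 and TRAPPC9) hold the selected gene within their span. Of the 54, edgeR called 0, DESeq2 called 1 (MYADM), and 9 had an unadjusted p under 0.05. Their median log2 fold change was 0.03, with a range of -0.35 to 0.45, and 15 of the 54 lay within 50000 bases. DNAJB2, 1440 bases from TUBA4A, stood at a mean of 71.6 CPM under DMSO and 73.7 CPM under AZD7762. The neighbour with the smallest edgeR p was MYADM, beside ZNF331, at 49.7 and 63.4 CPM (log2 fold change 0.39 ± 0.08, edgeR adjusted p = 0.0634). These neighbours were named after their values were seen.

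In structure the selected genes were short. The 25 protein-coding ones had a median span of 7617 bases, 4 exons and 3594 exonic bases, against 34925 bases, 9 exons and 5396 exonic bases for the 13623 protein-coding genes tested. Their gene body was under 5000 bases in 8 of 25 (32.0%), against 8.04% of all, and 7 of 25 (28.0%) had no more than 2 exons, against 7.15%. SOX2, FAM43A and LRRC10B have 1 exon, and RASD1, TOB1, TOB2 and LRRTM2 have 2. The 18 protein-coding genes of the families set aside had a median span of 5720 bases and 4 exons as well, values on the same side of those of all genes. The GC content of the exons of the 25 genes covered a wide range, from 37.5% in SYT4 to 67.7% in LRRC10B, with a median of 51.2% against 47.9%. These are descriptions of the selected genes and were not tested.

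The genes differed in how alike their replicates were. The coefficient of variation had a median of 7.63% with DMSO and 12.8% with AZD7762, with maxima of 31.2% for GADD45B with DMSO and 28.2% for FGA with AZD7762. In 14 of the 27 genes the second AZD7762 library was the highest of its group, in 9 the third and in 4 the first. Among the DMSO libraries the third was highest for 12 genes, the first for 9 and the second for 6. The second AZD7762 and the third DMSO library were the only ones whose deviation from their group was set against GC content. For the 8 selected genes with a GC content under 45%, the second AZD7762 library lay a median of 0.32 (log2) above the mean of the other AZD7762 libraries, and for the 7 genes at 60% or more it lay at -0.04. Over 13766 tested genes with a mean of at least 2 CPM the same medians were 0.05 and -0.22, so that the selected genes lay above those of all genes in both classes. The third DMSO library behaved in the opposite way, at -0.04 and 0.36, against -0.04 and 0.32 for all genes. Over the 27 genes, which share these libraries, the correlation of the deviation with GC content was r = -0.59 (Spearman's coefficient -0.58) and r = 0.56 (Spearman's coefficient 0.53). When each library's trend on GC content was removed, a step added after the values had been seen, the rule again gave 27 genes, of which 26 were among those described here, with TUBA4A replaced by TENT5A.

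**Figure D3:**
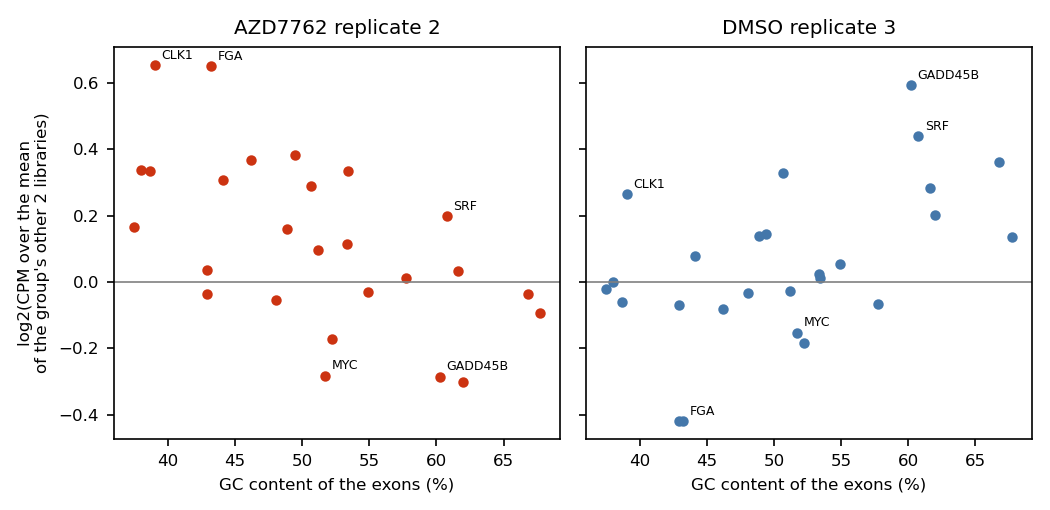
For 26 of the 27 selected genes, the log2 ratio of its level in 1 library to the mean of the other 2 libraries of the group, against the GC content of its exons in percent, for the second AZD7762 library (left) and the third DMSO library (right). CLK1 and FGA, of low GC content, lie highest at left, and GADD45B and SRF, of 60% or more, lie high at right.

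Leaving out 1 library at a time kept every selected gene above 0 on the log2 scale in edgeR's fit, from 0.45 for TUBA4A at the lowest to 1.96 for GADD45B at the highest. The range was widest for GADD45B (1.52 to 1.96), FGA (1.04 to 1.44) and CLK1 (1.28 to 1.67), and narrowest for TUBA4A and SGK1. The direction was fixed by the selection, in which the groups do not overlap, so the sign carries no information on stability.

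**Figure D4:**
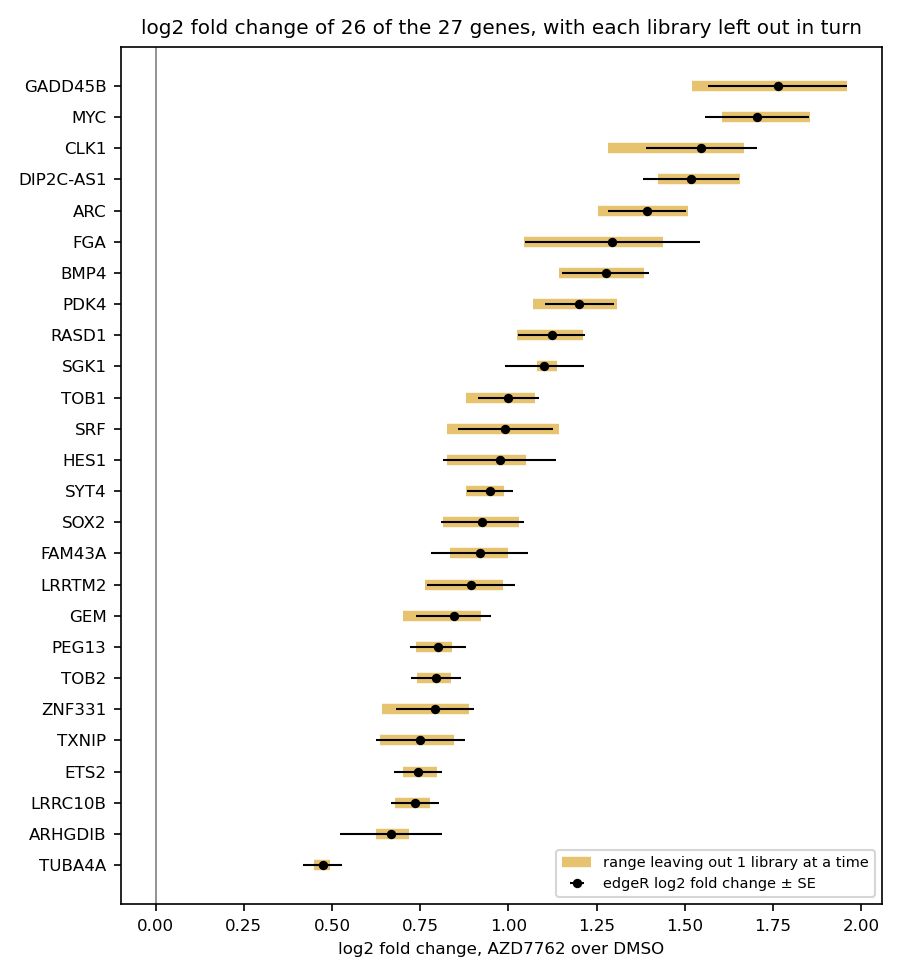
edgeR log2 fold change, AZD7762 over DMSO, of 26 of the 27 selected genes (black points, with bars of 1 standard error) and the range of the estimate when each of the 6 libraries is left out in turn (yellow bars). Estimates run from 0.47 for TUBA4A to 1.76 for GADD45B, and the yellow bars of GADD45B, FGA and CLK1 are the widest.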

How the data were processed

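RNA-seq of EndoC-βH1 cells was analysed in 6 libraries, 3 treated with DMSO and 3 with 1 µM AZD7762, grouped by the treatment given in the labels. The authors trimmed the reads with cutadapt 1.18, checked them with FastQC 0.10.1, aligned them to GRCh37 and counted them per gene with HTSeq-count. What was deposited is a table of raw counts for each sample, neither scaled nor filtered. Library preparation used either of a pair of kits, 1 of them stranded, and neither the kit of each library nor the strand setting is given in the sources used here.

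CPM are counts over the total of each file, without TMM scaling. The selected genes were found from CPM by the rule stated at the opening, and the genes and lists were chosen with earlier results of these data known. Names, positions, exons and GC content came from GENCODE release 44 lifted to GRCh37, which matched 58646 of 60671 identifiers. Promoter windows came from RefSeq (GRCh38.p14). The CPM of a gene per kb is over the summed length of its exons.

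Genes were tested in R 4.3.3 with edgeR 4.0.16 (filterByExpr, TMM scaling, glmQLFit and glmQLFTest, two-sided, with a term for treatment alone) and Benjamini-Hochberg adjusted over 17649 genes, with a threshold of 0.05. Standard errors are the log2 fold change over the square root of the F statistic. Alternatives were other scaling factors, other filters, the replicate number as a term, DESeq2 1.42.0, other limits in the rule, and each library left out in turn. Removal of the GC trend and the neighbouring and overlapping genes were added after the data had been seen. Values in every library are given for 26 of the 27 selected genes, and the other, its gene list and 1 neighbouring gene are not reported here. Relatives named are those called and otherwise up to 3 of the highest CPM in a list. PDK1 and PDK2, and relatives named for an unadjusted p or a DESeq2 call, were named after their values were seen.

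Pairs of libraries within a group were further apart than sampling noise, at a chi-square per gene of 4.51 to 8.62 over genes with at least 10 counts in a pair. TMM factors lay between 0.983 and 1.02, mitochondrial genes held 1.57% to 2.63% of the counts, and the biological coefficient of variation was 7.15%.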

Additional observations from a re-analysis of the deposited data

How the results depend on the processing

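The rule gave 27 genes with TMM-scaled CPM, without mitochondrial genes in the total and with the GC trend removed, 15 with a ratio limit of 1.5 and 33 with a limit of 1.2, 36 with a mean of at least 1 CPM and 24 with a mean of at least 5 CPM. With 1 library left out, a looser rule by its construction, it gave 30 to 38, and the only gene of the 27 lost was FGA, without the second AZD7762 library. Of 243 alternative values of the log2 ratio of the selected genes, 240 moved by less than the spread between replicates and 0 reversed. The 3 that moved more were TUBA4A with TMM scaling (0.47) and with the GC trend removed (0.38), and LRRC10B with the GC trend removed (0.59). edgeR called 125 genes and 9 relatives, which became 330 and 19 without a filter on low counts, 116 and 8 where each sample had to reach 10 counts, 174 and 12 with DESeq2, and 77 to 168 and 5 to 13 with 1 library left out, the lowest without the first AZD7762 library (77 and 5). Without the second AZD7762 library 5 relatives were also called. With a replicate block, 378 genes and 23 relatives were called. The labels give both groups replicate numbers 1 to 3. The deviations of same-numbered libraries correlated at 0.083, 0.18 and 0.28. Those of libraries with different numbers correlated at 0.24, -0.31, -0.15, -0.039, 0.061 and -0.34. DMSO replicates 2 and 3 correlated best with the AZD7762 library of their own number. DMSO replicate 1 correlated best with AZD7762 replicate 2 (0.24). These values do not settle whether the numbers pair the samples, and the main fit did not treat them as pairs. Of the neighbouring genes edgeR called 2 without a filter, 3 with the replicate block and 2 without the third DMSO library, and DESeq2 called 1. Of the 27 selected genes 22 to 27 were called under these settings, the lowest without the first AZD7762 library. Depth limits FGA, ARHGDIB, GADD45B and HES1 most, and CNN2 among the relatives. The causes of these shifts were not tested.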
